A study of Mus musculus with 3 samples.

Results

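The urea cycle genes described here are Cps1, Ass1, Asl, Arg1, Nags, Slc25a13 and Slc25a15, which encode enzymes of the cycle, the enzyme that makes its activator and mitochondrial carriers that feed it. They do not cover every step of the cycle. Their RBFOX2 crosslink clusters were those on the strand of the gene with their midpoint inside the gene's span in the GENCODE M21 annotation of the mouse genome GRCm38. This rule took 94 of the 87021 clusters in the list (0.108%), and these held 2176 of the 2850863 counts (0.0763%). All 7 genes had at least 1 cluster, whereas 41.7% of the 22028 protein-coding genes in the annotation had one.

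The clusters came from eiCLIP, a method in which RNA is crosslinked to protein by ultraviolet light, recovered with an antibody and copied to cDNA that stops at the bound nucleotide, which turns cDNA starts into a record of contacts. Primary hepatocytes, the parenchymal cells of the liver, were taken from C57BL6/J mice on a control diet, kept in culture overnight, irradiated at 150 mJ/cm2 and precipitated with an antibody to RBFOX2 (also called RBM9). The 3 libraries form a single group, the labels give 3 livers and 3 pellets for each, and the study's methods instead describe separate cultures with 2 mice behind each. The authors merged the libraries before they called clusters, so that each cluster has 1 pooled count of cDNA starts, and neither the variation among the libraries nor their depths can be read from the list.

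Intervals given below are exact 95% intervals. They take in the error of counting alone, and replicate error could not be assessed for any value. There is no other condition, so no comparison between groups was possible. A cluster count rises both with the amount of an RNA and with the share of it that is bound. These cannot be told apart here, just as fewer cells and less RNA per cell cannot be told apart in a bulk culture. The study prepared a size-matched input, but no input was used here. How much RNA was recovered without RBFOX2 was therefore not assessed, in these or in other genes.

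The urea cycle turns ammonia, which is toxic, into urea in hepatocytes, beginning in the mitochondrion and ending in the cytosol. Carbamoyl phosphate synthetase (Cps1) fixes ammonia in the mitochondrion and depends on N-acetylglutamate, the product of Nags. The cytosolic enzymes argininosuccinate synthetase (Ass1), argininosuccinate lyase (Asl) and arginase (Arg1) act later in the cycle, while citrin (Slc25a13) carries aspartate and Slc25a15 carries ornithine across the inner mitochondrial membrane. RBFOX2 is a splicing factor that binds GCAUG in RNA, and its effect on an exon is known to depend on whether it binds in the intron before or after that exon.

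All 10 hepatocyte markers examined had a cluster, and their summed counts per gene ran from 11 to 8110 around a median of 213.5. Of the markers of other liver cells, 2 of 5 endothelial genes, 2 of 5 Kupffer cell genes, 1 of 6 stellate cell genes, 0 of 5 cholangiocyte genes and 1 of 4 lymphocyte genes had a cluster. The share over all protein-coding genes was 41.7%, which the endothelial and Kupffer cell lists were close to, so these counts do not show that other cells were absent. The summed counts of those genes lay between 12 and 24, apart from the stellate cell gene Reln, with a summed count of 150. The part of other cell types in the urea cycle values was not tested.

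Crosslinking was spread very unevenly over the 7 genes, and Cps1 held most of it. Cps1 had 57 clusters with a summed count of 1540, which was 60.6% of the clusters and 70.8% of the counts of the 7 genes. Slc25a13 followed with 18 clusters and a summed count of 260 (interval 229 to 294). Asl had 7 clusters and a summed count of 181 (156 to 209), and Ass1 had 7 clusters and a summed count of 124 (103 to 148). Arg1 had 3 clusters and a summed count of 43 (31.1 to 57.9). Nags and Slc25a15 had 1 cluster each, with counts of 15 and 13. In this order the intervals of neighbouring genes did not overlap, with the exception of Nags (8.40 to 24.7) and Slc25a15 (6.92 to 22.2).

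Among the 10744 annotated genes with a cluster, the urea cycle genes stood at almost every level of the list. By summed count, Cps1 ranked 198, Slc25a13 ranked 1616, Asl ranked 2269, Ass1 ranked 3135, Arg1 ranked 5922, Nags ranked 8901 and Slc25a15 ranked 9402. The median summed count of the 7 genes was 124, and it was 63 over the 9191 protein-coding genes with a cluster. Of the 7 genes, 5 had a cluster with a count at or above 17, the median of all clusters, and so did 31.9% of protein-coding genes. Nags and Slc25a15 were the 2 genes without one.

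**Figure D1:**
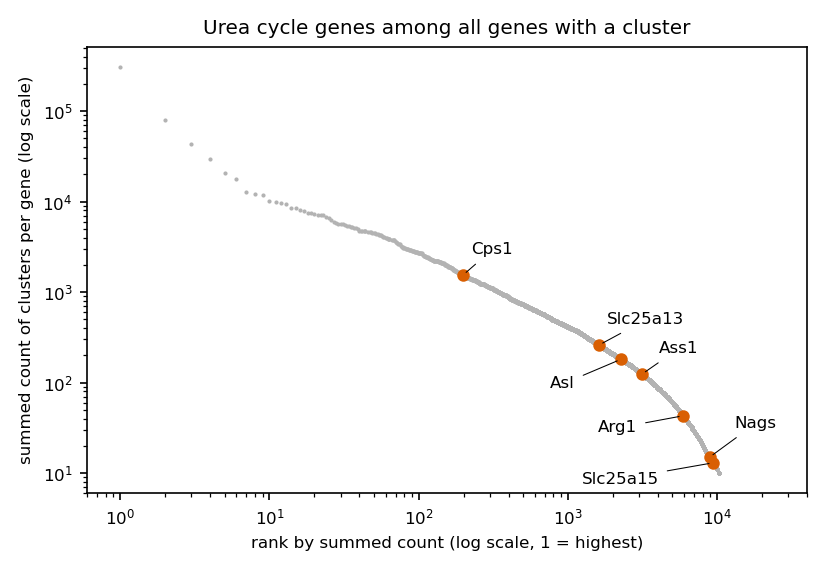
Summed cluster count of each gene (vertical axis, log scale) against its rank among all genes with a cluster (horizontal axis, log scale, 1 is the highest). Grey points are genes and orange points are the urea cycle genes, from Cps1 at 1540 counts and rank 198 down to Slc25a15 at 13 counts and rank 9402.

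Long genes offer more sequence in which a cluster can lie, and the order of the genes changed once counts were set per length of the gene. Clusters per kb of span were 0.527 for Cps1 (0.399 to 0.682), 0.389 for Asl (0.156 to 0.802) and 0.252 for Nags, whose span is 3.965 kb. They were 0.245 for Arg1, 0.139 for Ass1, 0.102 for Slc25a13 (0.0606 to 0.162) and 0.0434 for Slc25a15. No neighbours in this order differed beyond counting error. The ratio of Cps1 to Asl, for example, was 1.35 (0.616 to 3.52). Slc25a13, the longest of the genes at 175.956 kb, moved from rank 1616 by summed count to rank 6507 by count per kb of span, while Asl moved from rank 2269 to rank 2000.

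The median count of the 94 clusters was 17 (range 10 to 158), equal to that of all clusters, and 54.3% of them were at or above it against 51.7% of all clusters. This figure combined Cps1, with 36 of 57 clusters at or above the median (63.2%), and the other 6 genes, with 15 of 37 (40.5%), among them 5 of 18 in Slc25a13. Of the 94 clusters, 11 reached a count of 39, the 90th percentile of the list, and 10 of these were in Cps1. The median width of the 94 clusters was 34.5 nt (range 1 to 196), against 18 nt over all clusters and 23 nt over clusters in protein-coding genes. By gene the median was 24 nt in Cps1, close to the latter, 30 nt in Asl and 32.5 nt in Slc25a13. It was 70 nt in Arg1 and 102 nt in Ass1, and the single clusters of Nags and Slc25a15 were 157 and 12 nt wide. Clusters of 100 nt or more made up 21.3% of the urea cycle clusters and 13.5% of the list, and 7 clusters were a single nucleotide wide. No cluster lay on the opposite strand of any of the 7 genes, and none was shared with another gene of the same strand.

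By position in the transcript, 63 of the 94 clusters were intronic (67.0%, 56.6 to 76.4), 19 lay in coding sequence (20.2%, 12.6 to 29.8), 10 in 3′ UTRs (10.6%, 5.22 to 18.7), 1 in a 5′ UTR and 1 in a non-coding exon. Exonic clusters were thus 33.0% of the total (23.6 to 43.4), near the 30.7% over all clusters in protein-coding genes. The mixture differed widely from gene to gene. All 7 clusters of Ass1 and 17 of the 18 clusters of Slc25a13 were intronic, whereas 23 of the 57 clusters of Cps1 were exonic. Without Cps1 the exonic share of the other 6 genes was 21.6% (9.83 to 38.2), an interval that contains the share over all protein-coding genes. Exonic clusters were wider than intronic ones, with medians of 43 and 28 nt, and had median counts of 19 and 17.

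**Figure D2:**
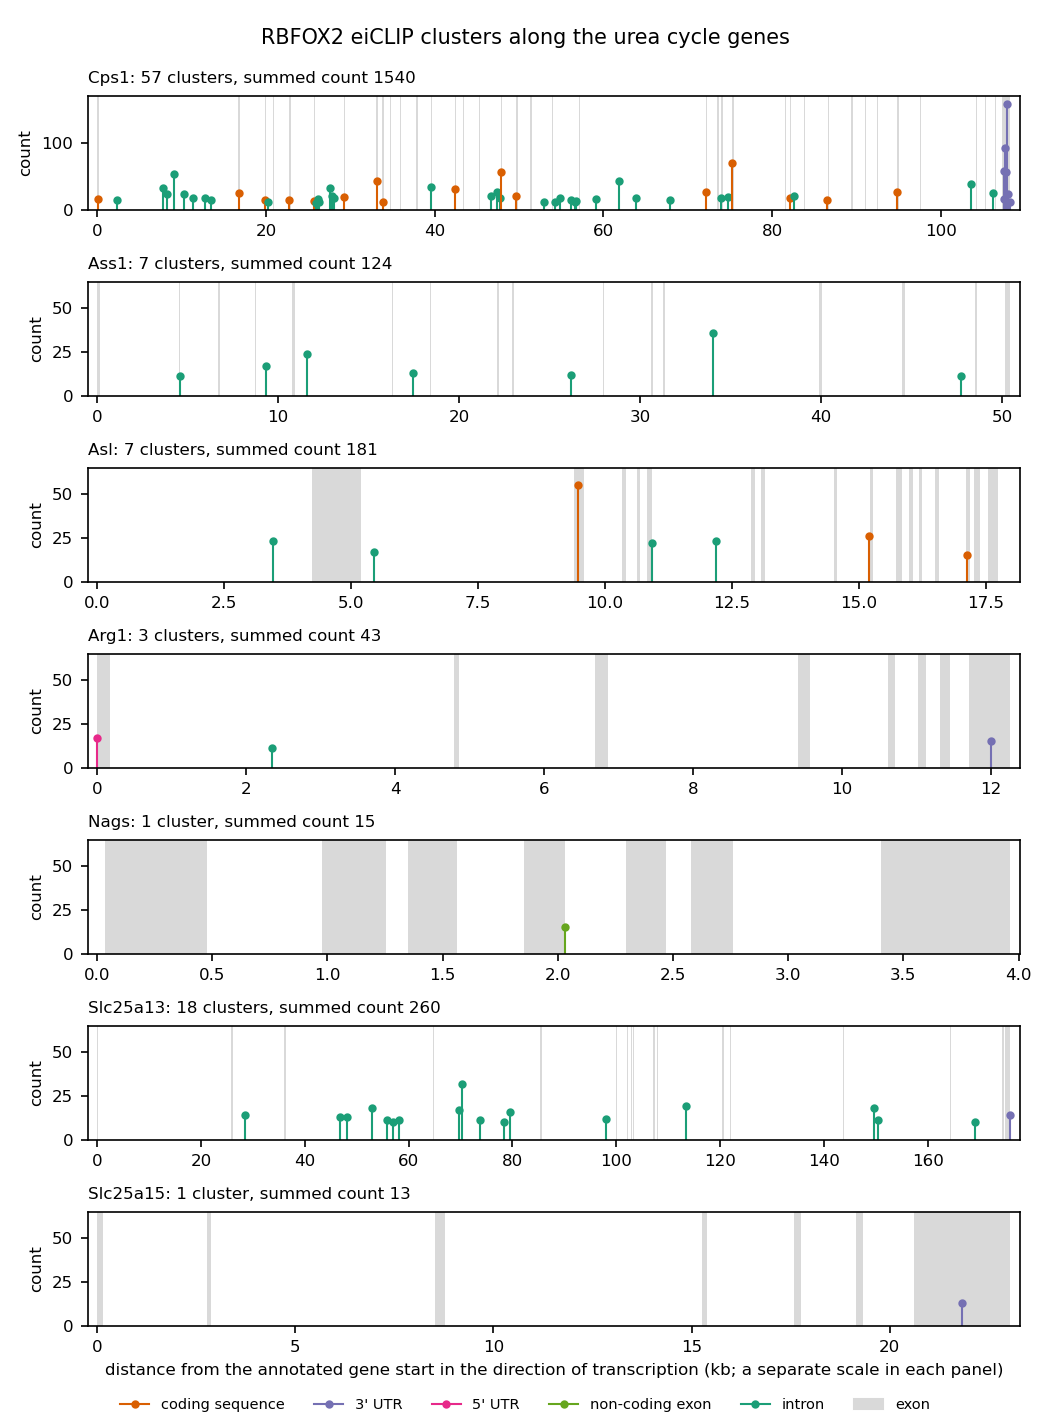
Every cluster of the 7 genes at its 5′ end, as kb from the annotated gene start in the direction of transcription (horizontal axis, a separate scale in each panel), with its pooled count (vertical axis, to 170 for Cps1 and to 65 for the others). Colours give the class of the cluster and grey bands are the exons of the longest coding transcript, widened where they would be too thin to see. The clusters of Cps1 run along the whole gene and peak in the last exon, those of Ass1 and Slc25a13 lie almost entirely between the bands, and the cluster of Nags lies in an exon of another transcript that is not drawn.

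Cps1, the enzyme that commits ammonia to the cycle and one of the most abundant proteins of liver mitochondria, was the only gene of the 7 with clusters in coding sequence, 3′ UTR and introns alike. The gene (ENSMUSG00000025991.8) lies at chr1:67123026-67231259 on the plus strand, spans 108.234 kb and has 1 annotated transcript of 38 exons. Clusters lay in 17 of the 38 exons and in 13 of the 37 introns. Per kb there were 7.64 clusters in the 3′ UTR (3.07 to 15.7), 3.56 in coding sequence (2.03 to 5.77) and 0.331 in introns (0.229 to 0.463). The 3′ UTR was 23.1 times as dense in clusters as the introns (8.63 to 52.9) and the coding sequence 10.7 times (5.53 to 19.99). The ratio of 3′ UTR to coding sequence was 2.15 with an interval that included 1 (0.748 to 5.52). Over all protein-coding genes with a cluster the densities were 0.537 clusters per kb in 3′ UTRs, 0.555 in coding sequence and 0.0734 in introns.

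The clusters with the 2 highest counts of the 7 genes were in the Cps1 3′ UTR, a stretch of 916 nt that held 7 clusters and 416 counts, or 27.0% of the counts of the gene. The highest cluster, at chr1:67230878-67230920, had a count of 158, more than 98.9% of all clusters in the list, and a width of 43 nt. The next clusters of this UTR were at chr1:67230579-67230608 with a count of 92, at chr1:67230449-67230460 with a count of 58 and at chr1:67230787-67230795 with a count of 56. The other 3 clusters of this UTR had counts of 24, 16 and 12. No cluster of the other 6 genes had a count above 55, so the 4 highest 3′ UTR clusters of Cps1 each exceeded every cluster of the other genes.

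The sequence at the 5′ end of these clusters was read from the annotated Cps1 transcript (GENCODE M21, GRCm38), with 14 nt before the first crosslinked position and 30 nt in all. Capitals mark the bases inside the cluster, in the order of the counts 158, 92, 58 and 56. The stretches are shown because they hold the contacts with the highest counts in a 3′ UTR of the 7 genes, and they lie at chr1:67230864-67230893, chr1:67230565-67230594, chr1:67230435-67230464 and chr1:67230773-67230802 on the plus strand.
Cps1 3′ UTR, count 158: ttcccatgattcacAAAGTGAGATTGGATT
Cps1 3′ UTR, count 92: ttcaaccattcacaCATTATCTTTTGTAGA
Cps1 3′ UTR, count 58: ggatggtgttgccaAACTTTATTTTGgttt
Cps1 3′ UTR, count 56: tttatgaatggcatCATGATGCTtgtgtat

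Of the 30 bases in each stretch, T (U in the RNA) made up 10, 12, 14 and 13, in the same order. The stretch with the highest count thus had the fewest T, also among the 7 clusters of this UTR. Over the 7 clusters of the Cps1 3′ UTR, T made up 42.9% of the bases shown in this way, against 36.9% of the whole Cps1 3′ UTR and 32.4% of the corresponding stretches in the 3′ UTRs of all protein-coding genes. At the coding clusters of Cps1 the share was lower, 23.8% over 8 stretches, beside 24.2% of the whole coding sequence and 21.6% of coding stretches of all protein-coding genes. No interval was set on these base shares. None of the 7 windows of the 3′ UTR, which added 50 nt on both sides of a cluster, contained GCATG, which is GCAUG written as DNA. The whole Cps1 3′ UTR holds no GCATG, so no other outcome was possible.

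The 16 coding clusters of Cps1 had a summed count of 419, almost equal to that of the 3′ UTR, but were spread along the reading frame from exon 1 to exon 33. Each of them lay in an exon of its own. The highest was in exon 25 (chr1:67198307-67198476, count 69), where it covered 170 nt of the 182-nt exon, followed by clusters in exon 17 (count 56) and exon 8 (chr1:67156178-67156274, count 43). Exon 14 had a cluster with a count of 31, and exons 22, 33, 2 and 18 had clusters with counts of 27, 26, 25 and 21. The clusters of exons 7, 27, 1, 5, 3, 29, 6 and 9 had counts between 12 and 19. The cluster of exon 1 began at base 140 of the mRNA, the first base of the start codon.

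**Figure D3:**
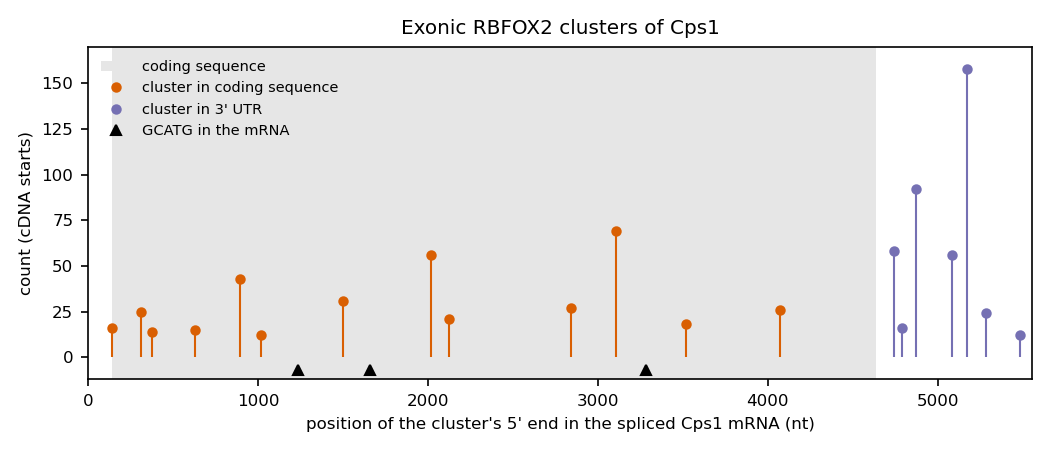
Exonic clusters of Cps1 along the spliced mRNA (horizontal axis, position of the 5′ end of the cluster in nt) with their pooled counts (vertical axis). Grey marks the coding sequence, colours the class, and triangles the 3 GCATG motifs of the mRNA. The 3 coding clusters that begin in the intron before their exon (exons 6, 7 and 29) have no mRNA position and are not drawn. The highest counts, 158 and 92, are in the 3′ UTR, away from the triangles, which are all in the coding sequence.

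The 34 intronic clusters of Cps1 had a summed count of 705, or 45.8% of the counts of the gene, and gathered in a few introns. Intron 1, of 16466 nt, held 8 clusters with 198 counts, intron 6 (3479 nt) held 6 with 107 counts, intron 20 (2985 nt) held 5 with 67 counts and intron 21 (14953 nt) held 4 with 90 counts. Together these 4 introns, chosen for their cluster number, had 23 of the 34 clusters in 36.9% of the intronic length. Introns with a cluster had a median length of 2479 nt and those without one 1642.5 nt, and the longest without one had 6025 nt. The highest intronic clusters were in intron 1 (chr1:67132113-67132172, count 53), 7585 nt before exon 2, and in intron 21 (chr1:67184871-67185037, count 43), 4682 nt after exon 21.

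Within 500 nt of an exon, counted from either end of it, lay 14 of these 34 intronic clusters (41.2%, 24.6 to 59.3), beside 29.5% of the intronic clusters of all protein-coding genes. Of the 14, 7 were in the intron before the nearest exon, 5 in the intron after it and 2 overlapped an exon. Those before an exon stood 124 nt from exon 37 (count 25), 137 and 482 nt from exon 17 (counts 17 and 27), 280 and 459 nt from exon 21 (counts 13 and 11), 334 nt from exon 35 (count 39) and 500 nt from exon 25 (count 19). Those after an exon stood 193 and 353 nt from exon 6 (counts 10 and 16), 245 nt from exon 3 (count 12), 247 nt from exon 20 (count 11) and 359 nt from exon 27 (count 21). The clusters that overlapped an edge were at the 5′ splice site of exon 13 (count 34) and the 3′ splice site of exon 24 (count 17). Exon 17 therefore had an exonic cluster and a pair of clusters in the intron before it. Since the annotation holds 1 Cps1 transcript, none of these exons is annotated as alternatively spliced.

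Slc25a13, the aspartate and glutamate carrier of liver mitochondria, had scattered, mostly intronic clusters that lay far from exons in long introns. The gene (ENSMUSG00000015112.15) lies at chr6:6041218-6217173 on the minus strand and has 18 exons in its longest coding transcript. Of its 18 clusters, 17 were intronic, with counts of 10 to 32, and they lay in 7 of 17 introns. Intron 3 (28447 nt) held 6 of them with 76 counts and intron 4 (20639 nt) held 5 with 86 counts. The highest cluster, at chr6:6146725-6146905, was 181 nt wide with a count of 32 and lay in intron 4, 5503 nt after exon 4. The next ones had counts of 19 in intron 11, 18 in intron 3, 18 in intron 14 and 17 in intron 4.

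No intronic cluster of Slc25a13 was within 500 nt of an exon (0 of 17, interval up to 19.5%). The median distance was 5485 nt, the nearest 848 nt and the farthest 9717 nt, against medians of 865.5 nt in Cps1 and 1545 nt over all protein-coding genes. Longer introns leave more sequence far from exons. Slc25a13 has 172.321 kb of intron in 17 introns, and Cps1 has 102.679 kb in 37. The part of intron length in these distances was not tested. The single exonic cluster, at chr6:6041278-6041378 in the 3′ UTR of exon 18, had a count of 14. The intronic density of 0.0987 clusters per kb (0.0575 to 0.158) was below that of Cps1, and its interval did not overlap the Cps1 interval of 0.229 to 0.463. It contained the 0.0734 per kb of all protein-coding genes with a cluster.

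Ass1, which joins citrulline to aspartate, had no exonic cluster. The gene (ENSMUSG00000076441.9) lies at chr2:31470207-31520672 on the plus strand with 16 exons in its coding transcript, and its exons of 1.696 kb gave an upper limit of 2.18 clusters per kb, below the lower limit of 2.62 for the exons of Cps1. Its 7 clusters lay in 7 different introns. The highest, at chr2:31504247-31504348 in intron 12, had a count of 36 and lay 2695 nt after exon 12. The clusters of introns 5, 4, 6 and 9 had counts of 24, 17, 13 and 12 and stood 635 nt after exon 5, 546 nt after exon 4, 886 nt before exon 7 and 1570 nt before exon 10. The cluster of intron 14 had a count of 11 and stood 715 nt before exon 15. The remaining cluster, at chr2:31474770-31474773 with a count of 11, was 4 nt wide and crossed the 5′ splice site of exon 2. Widths were large, with a median of 102 nt (range 4 to 170).

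Asl, which splits argininosuccinate into arginine and fumarate, had 3 of its 7 clusters across the edge of an exon. The gene (ENSMUSG00000025533.15) lies at chr5:130011258-130029247 on the minus strand, and 3 of its clusters were in coding sequence and 4 in introns. Its exons are numbered here as in Asl-203, the longest coding transcript. The highest cluster, at chr5:130019639-130019775, had a count of 55 and a width of 137 nt in exon 2 and ran over the 5′ splice site of that exon. A cluster with a count of 26, at chr5:130013980-130014044, was 65 nt wide at exon 9, an exon of 63 nt, and crossed its 3′ splice site. A cluster with a count of 22, at chr5:130018271-130018313, lay across the 5′ splice site of exon 5. The third coding cluster, at chr5:130012078-130012107 in exon 14, had a count of 15.

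The nearest exons of the other 3 intronic clusters of Asl are absent from Asl-203. A cluster with a count of 17, at chr5:130023792-130023793, stood 94 nt before an exon of 63 nt (chr5:130023636-130023698) that transcript Asl-207 uses and at least 1 other transcript skips, the single annotated cassette exon found in the 7 genes. A cluster with a count of 23, at chr5:130017056-130017058, stood 228 nt before a 75-nt exon of the non-coding transcript Asl-204. A further cluster with a count of 23, at chr5:130025774-130025775, stood 641 nt before an exon of 57 nt of transcript Asl-202. These 3 clusters were 2 or 3 nt wide. How often hepatocytes use these exons was not measured here.

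The stretch at the highest Asl cluster lies at chr5:130019760-130019789 on the minus strand and is written in the direction of the RNA, with capitals for the bases inside the cluster.
Asl exon 2, count 55: ctatctcctatgacCGGCATCTGTGGAATG

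Arg1, the last enzyme of the cycle and a well-known marker of hepatocytes, had few contacts. The gene (ENSMUSG00000019987.9) lies at chr10:24915221-24927484 on the minus strand and has 8 exons. Its 3 clusters were at the 5′ end of the mRNA, in intron 1 and in the 3′ UTR. The first, at chr10:24927325-24927488 with a count of 17, covered almost all of the 173-nt exon 1 with a width of 164 nt and began 4 nt before the annotated start of the gene. The intronic cluster, at chr10:24925086-24925140, had a count of 11 and stood 2172 nt after exon 1. The 3′ UTR cluster, at chr10:24915407-24915476, had a count of 15. By summed count of exonic clusters per kb of exon, Arg1 ranked 1582 of 5819 genes with an exonic cluster, against rank 5922 of 10744 by summed count over the whole gene.

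Nags and Slc25a15, which make the activator of Cps1 and carry ornithine into the mitochondrion, each had a single cluster near the lowest count in the list, 10. The Nags cluster, at chr11:102147545-102147701, had a count of 15 and a width of 157 nt. It lay in intron 4 (265 nt) of the coding transcript and inside a 1492-nt exon of the non-coding transcript Nags-202, so that it was classed as non-coding exon. It began at the first base of that intron, next to the 5′ splice site of exon 4, without crossing the exon edge. The Slc25a15 cluster, at chr8:22376753-22376764, had a count of 13 and a width of 12 nt in the 3′ UTR of exon 7. With 0 clusters in 19.617 kb of Slc25a15 introns, the upper limit was 0.188 clusters per kb, below the lower limit of 0.229 for the introns of Cps1.

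**Figure D4:**
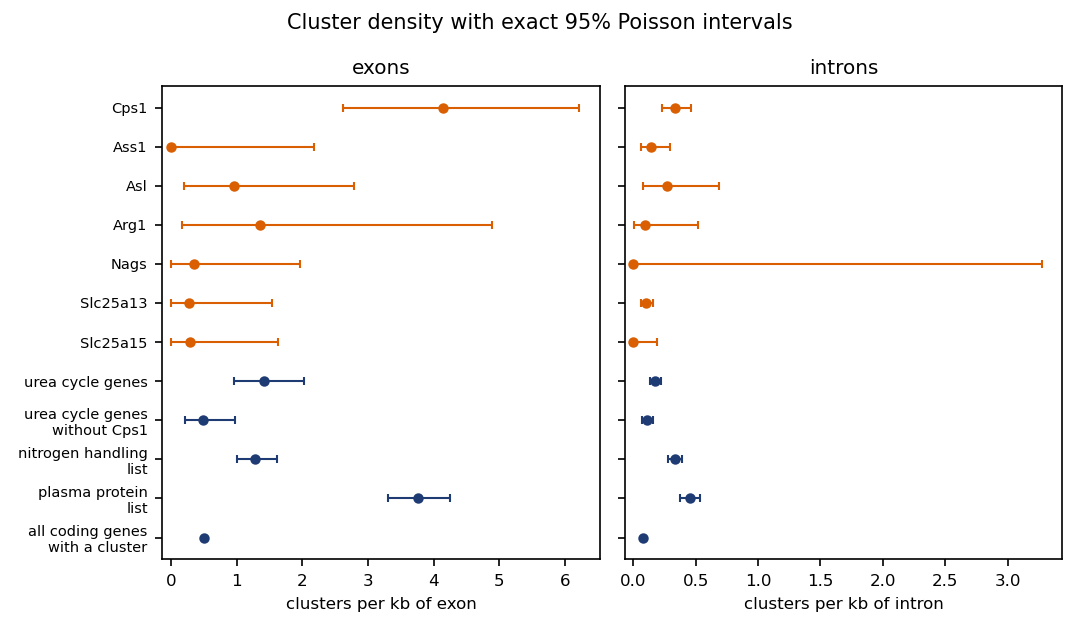
Clusters per kb of exon (left) and per kb of intron (right) for the 7 genes (orange) and for gene lists (blue), with exact 95% Poisson intervals as bars. Cps1 stands at 4.14 per kb of exon, above the 0.509 of all coding genes with a cluster and within the range of the plasma protein list at 3.75, while the 6 other genes together stand at 0.493.

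Set beside other liver transcripts per length, the exonic density of Cps1 lay inside the interval of the mRNAs of secreted plasma proteins, and that of the other urea cycle genes was close to the density over all genes. Exonic density was 4.14 clusters per kb in Cps1 (2.62 to 6.21), 3.75 over 20 plasma protein genes (3.30 to 4.26) and 1.29 over a list of 21 further genes of nitrogen handling (1.01 to 1.61). It was 0.493 over the 6 other urea cycle genes (0.213 to 0.972) and 0.509 over all protein-coding genes with a cluster. Gene by gene the 6 ran from 0 in Ass1 (up to 2.18) to 1.35 in Arg1 (0.164 to 4.89), with wide intervals. Intronic density was 0.331 per kb in Cps1, 0.451 in the plasma protein genes (0.375 to 0.537), 0.330 in the nitrogen handling genes (0.280 to 0.387), 0.108 in the 6 other urea cycle genes (0.0726 to 0.156) and 0.0734 over all. In the plasma protein list 66.4% of clusters were exonic (61.3 to 71.2), against 33.0% in the urea cycle genes (23.6 to 43.4). These intervals did not overlap, but the shares are not set per length. The plasma protein genes have 65.3 kb of exon and 275 kb of intron, and the urea cycle genes 21.8 and 370 kb. Per kb, the urea cycle genes together had 1.42 exonic clusters (0.968 to 2.02) and 0.170 intronic ones (0.131 to 0.218). Both densities were below those of the plasma protein list. The part of these lengths in the difference between the shares was not tested.

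Over all protein-coding genes 41.7% had a cluster, and the median summed count of those was 63. All 20 plasma protein genes had a cluster, at a median summed count of 336, and the highest were albumin (Alb, 8110), apolipoprotein B (Apob, 2337) and fibronectin (Fn1, 2288). Of the 21 nitrogen handling genes, which act in or around the cycle on ammonia, glutamate and amino acids, 15 had a cluster, at 190 counts for the median gene of the 15. The highest were the alanine transaminase Gpt2 (1342), the amino acid transporter Slc7a2 (1218) and glutamate dehydrogenase (Glud1, 1129), all below Cps1 at 1540. All 10 regulators of urea cycle transcription had a cluster, with a median of 67, close to the 63 over all, and the highest sums in Hnf4a (237), the glucocorticoid receptor Nr3c1 (190) and Creb1 (158). These lists were compared by their counts only.

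Clusters that ran across the edge of an exon made up 11 of the 94 urea cycle clusters (11.7%, 5.99 to 19.97) and 5.63% of the clusters in the longest coding transcripts of all genes. Of the 11, 6 crossed a 5′ splice site and 5 a 3′ splice site. Cps1 had 7 of them, with counts of 13 to 43, Asl had 3 and Ass1 had 1. Their widths ran from 4 to 148 nt, and the part of the greater median width of the 94 clusters in this share was not tested. Over the 7 genes, 18 of 63 intronic clusters were within 500 nt of an exon (28.6%, 17.9 to 41.3), near the 29.5% of all protein-coding genes, with 9 before the exon, 5 after it and 4 overlapping its edge.

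The RBFOX motif was found near 4 exonic clusters of these genes and could not be searched in most introns. GCATG was searched on the strand of the RNA in each cluster extended by 50 nt on both sides. Only windows wholly covered by annotated exons could be read, which left out nearly all intronic clusters and most exonic ones. Of the 31 exonic clusters, 12 had such a window. GCATG was found in 0 of 13 urea cycle windows and in 20.2% of 17770 windows of all protein-coding genes. The 0 of 13 allows a share of up to 23.1% by a floor of 3 counts, or up to 24.7% by the exact interval. Most of the 13 windows lay in 3′ UTRs, 7 of them in that of Cps1. No 3′ UTR of the longest coding transcripts of the 7 genes held a GCATG. Neighbouring windows in the Cps1 3′ UTR also overlapped, whereas the exact interval takes the windows as independent. The difference was therefore not detectable with 13 windows. When windows were instead laid on the spliced mRNA, 4 of 30 exonic clusters had a GCATG (13.3%, 3.76 to 30.7), against 16.6% of 19088 exonic clusters of all protein-coding genes. Those 4 were the clusters of Cps1 exons 14 and 25, Asl exon 9 and Arg1 exon 1. None of these 4 had a window that could be read on the genome, so the 0 of 13 did not include them.

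The longest coding transcripts of the 7 genes contained 14 GCATG in all, 13 of them overlapping the coding sequence, of which 2 overlapped the start codon and 2 were preceded by T to give TGCATG. The other was in the 5′ UTR of Asl, and none lay in a 3′ UTR. Cps1 and Slc25a13 had 3 each, Asl, Arg1 and Slc25a15 had 2 each, and Ass1 and Nags had 1 each. On the genome, 3 of the 14 were within 50 nt of a cluster, and these are the only ones shown, with GCATG in capitals. The motif in Cps1 exon 14 (stretch chr1:67165530-67165559, plus strand) stood 25 nt after the end of a cluster with a count of 31. The motif in Asl exon 9 (stretch chr5:130013978-130014007, minus strand) was inside the cluster with a count of 26. The motif in Arg1 exon 1 (stretch chr10:24927353-24927382, minus strand) overlapped the start codon and was inside the cluster with a count of 17.
Cps1 exon 14: ggctgattctggGCATGggtggccagacag
Asl exon 9: tcactctcaacaGCATGgatgccaccagtg
Arg1 exon 1: aacccagagagaGCATGagctccaagccaa

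The motif of the fourth spliced window opened exon 26 of Cps1, so that it was next to the exon 25 cluster only in the spliced mRNA. The exon 25 cluster, with a count of 69, was the third highest of the 7 genes. The 7 clusters of the Cps1 3′ UTR, with counts of 12 to 158, had no GCATG in either kind of window. That UTR contains no GCATG at all, so this outcome was fixed by its sequence. These matches describe the letters of the transcript in these windows and not whether RBFOX2 was bound through them.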

How the data were processed

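RBFOX2 eiCLIP was performed in 3 libraries of primary mouse hepatocytes. Per the labels and the study's methods, the authors used CASAVA 1.8.4, trimmed reads with cutadapt, kept those of at least 18 nt, aligned them to GRCm38 with STAR 2.4.2a, removed PCR duplicates and grouped cDNA starts into clusters with Paraclu. The authors deposited 1 list for the pooled libraries with an unnormalised whole-number count per cluster of at least 10, read here as cDNA starts from its values. No input was used here.

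Clusters were placed by midpoint in GENCODE M21 (the study named M20), with coding sequence taking precedence over 3′ UTR, that over 5′ UTR, then exons of non-coding transcripts and last introns, to which exons of retained-intron transcripts were assigned. A cluster in overlapping genes was counted in each, and 28 clusters on sequences without an annotated gene were left out. Sequence came from 141767 annotated transcripts. Python 3.11.15, numpy 2.4.6, scipy 1.17.1 and matplotlib 3.10.9 were used. Exact intervals are Clopper-Pearson for shares, Poisson for counts and densities and conditional binomial for ratios. The motif share of 0 of 13 windows also has a floor of 3 counts. No tests between groups were made. The assignment of clusters to genes and classes, the distance to exons and the reading of exon sequence were checked on simulated positions. Motif shares, intervals and ranks were not checked in this way.

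All 7 genes were named, with every cluster of genes with at most 10 clusters. For Cps1 and Slc25a13 these were the 5 highest, the exonic and the intronic clusters within 500 nt of an exon, and for other lists the 3 genes with the highest summed count. The introns with the most clusters were chosen after their values were seen. The genes and lists were chosen with earlier results of these data known. Alternatives changed the count filter, the assignment and merging of clusters, the transcripts, the weighting, the window, the ranking and the motif (TGCATG on its own, GCACG in addition to GCATG, the reverse complement CATGC and a set of lower-affinity variants).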

Additional observations from a re-analysis of the deposited data

How the results depend on the processing

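Leaving out each library was not run because the libraries were pooled. No paired analysis was possible because the samples form a single group in a pooled list.

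Of the 94 clusters, 51 had a count at or above the median. Weighted by count, the intronic share of 67.0% became 53.8% and the 3′ UTR share of 10.6% became 21.05%. Without Cps1, an alternative chosen after seeing the data, the intronic share was 78.4%, the coding share fell from 20.2% to 8.11%, and the share of intronic clusters within 500 nt of an exon fell from 28.6% to 13.8%. Only the search for lower-affinity motifs (GCACG or GAATG or GTTTG or GTATG or GTGTG or GCTTG or GCCTG), also chosen after seeing the data, moved the GCATG share from 0 beyond its interval, to 53.8% of 13 windows, against 62.7% over all protein-coding genes. With clusters at or above the median count, 0 endothelial, 1 Kupffer cell and 0 lymphocyte markers had one. Over all results and alternatives, 77 values stayed within their interval or within 1.5-fold and 35 moved, mostly ranks and counts of single genes. By count per kb of span Cps1 ranked 1547.

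Genes with 1 to 3 clusters rest on counts of 13 to 43, close to the minimum of 10 per cluster, below which contacts are not listed. Nearly all intronic windows, and most exonic windows on the genome, were not read. Depth per library is unknown.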
